A study of Mus musculus with 4 samples.

Results

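The axon guidance ligands and receptors are the genes of the semaphorin, plexin, neuropilin, ephrin, Eph, Slit, Robo, netrin, DCC and UNC5 families. They were taken by gene symbol: 72 rows of the deposited count tables matched, of 32285 genes in all, and the 67 with at least 100 UMIs (unique molecular identifiers, each 1 counted transcript) over the 4 libraries were kept. Efna4, Epha2, Robo4, Sema3b and Sema3g fell below that minimum. Of the 67, 62 encode guidance ligands or receptors: 18 semaphorins, 11 plexins and neuropilins, 7 ephrins, 13 Eph receptors, 3 Slits, 3 Robo receptors, 2 netrins and 5 netrin receptors. The symbols also brought in 5 rows of another kind, namely Unc50, Unc5cl and the antisense transcripts Plxna4os1, Plxna4os2 and Plxna4os3, which share their locus with Plxna4; they stay in the counts.

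Guidance cues steer growing axons by attraction or repulsion. Semaphorins act through plexins, with neuropilins as co-receptors for most class 3 members. Ephrins bind Eph receptors on touching cells and can also signal back into the cell that carries them. Slits repel axons through Robo receptors, while netrin 1 attracts through DCC and repels through UNC5 receptors. Many of these receptors signal to the actin cytoskeleton, on which CYFIP2 acts as a subunit of the WAVE complex, and several families keep working at mature synapses.

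The nuclei were taken from frozen hippocampus of mice aged 28 postnatal weeks, either wild type (WT) or heterozygous Cyfip2+/R87C knock-in (KI). The knock-in carries the R87C change in the germline, hence in all cells, and models an infantile epilepsy. Each genotype had 2 libraries. The labels number them as replicates without saying that each is 1 mouse, so the p-values measure the spread between libraries. For KI replicate 2 the labels give the change both as R88C and as R87C; its title places it in the KI group. Each library held 12665 to 16055 barcodes and 73009975 to 80913580.0 UMIs, and 11932 to 14927 nuclei remained after filtering, with a median of 3868 to 4698 UMIs. Clustering, done without the guidance genes, gave 30 clusters, of which 21 could be named from marker genes as 14 classes. The other 9 held 12.2% and 12.3% of nuclei in the WT libraries against 16.1% and 24.7% in KI. Oligodendrocytes formed 2 clusters that split by genotype, one with 2019 and 1230 WT but 29 and 84 KI nuclei, the other with 38 and 10 WT but 2074 and 782 KI nuclei. With clustering at a resolution of 1.0, granule neurons of the dentate gyrus (DG) likewise formed 2 clusters that split by genotype. The first held 4118 and 3119 WT but 239 and 826 KI nuclei (replicates 1 and 2). The second held 174 and 172 WT but 2229 and 1397 KI nuclei. The part of this split in the DG results was not tested. Pairs of libraries shared 40 to 67 cell barcodes. Cyfip2 itself was at 182 and 180.5 CPM (UMIs of the gene in 1000000 UMIs of the same nuclei) in WT and 172 and 171 CPM (KI); a single base change is not expected to alter this count, so it checks no label. Malat1, a nuclear RNA, took 8.9% and 8.71% of UMIs in WT and 13.7% and 12.2% in KI. The kept guidance rows together took 1.25% and 1.2% in WT and 1.06% and 1.09% in KI.

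The classes differed widely in which guidance genes they held. Levels are given as the mean ± SD of CPM over the 4 libraries and carry no test. In neurons the highest levels were those of Epha6, an Eph receptor, at 4946 ± 473 CPM in CA1 pyramidal neurons and 2968 ± 328 CPM in CA3 pyramidal neurons, ranges that did not overlap. CA3 pyramidal neurons also had the most Slit2 (466 ± 94.9 CPM, next 241 ± 46.4 CPM in subicular or cortical excitatory neurons, without overlap). Sema3e, a secreted semaphorin that acts through plexin D1, was at 312 ± 8.99 CPM in CA1 and 268 ± 38.9 CPM in CA3 pyramidal neurons, where the ranges overlapped. DG granule neurons, the principal cells of the dentate gyrus, led in Epha7 (1169 ± 217 CPM, next 511 ± 58.6 CPM in CA3) and in Plxna4 (1072 ± 204 CPM), and they held 512 ± 60.1 CPM of Sema5a, a transmembrane semaphorin. The antisense row Plxna4os3 was highest there too (163 ± 27.1 CPM). Inhibitory neurons stood above all other classes in Unc5d, a netrin receptor that also binds FLRT proteins, at 1722 ± 158 CPM, and held 252 ± 17.6 CPM of Efna5 and 21.3 ± 8.77 CPM of Sema6c. Cajal-Retzius cells, early-born neurons of the outer layers, had 2866 ± 482 CPM of Robo2, against 735 ± 49.5 CPM in the next class, CA1 pyramidal neurons, and 88.5 ± 7.4 CPM of Unc5b and 45 ± 21.1 CPM of Plxnd1. In subicular or cortical excitatory neurons the library means of Efna5 (165 to 370.4 CPM) and Sema5b (19.6 to 183 CPM) spread widely, and the 306 nuclei of WT replicate 1 there compare with 801 to 1620 in the other libraries.

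Glial and vascular classes carried other members. Oligodendrocyte precursors (OPC) had 101 ± 34.9 CPM of Ntn1, the netrin 1 ligand, beside 280.1 ± 39.2 CPM of Sema3d and 172 ± 50.2 CPM of Sema5b. Committed OPC had the highest mean of Plxnb3 (155 ± 84 CPM), a plexin typical of the oligodendrocyte lineage. Their libraries ran from 66.8 to 261 CPM and overlapped those of oligodendrocytes. Committed OPC also had Sema3d and Sema5b at 218 ± 65.4 CPM and 169 ± 84.6 CPM, overlapping the OPC. Oligodendrocytes held 72.1 ± 23 CPM of Plxnb3, 55.5 ± 8.92 CPM of Unc5b and 341 ± 184 CPM of Sema6a, the last with 613 CPM in KI replicate 1 and 211 to 285 CPM in the other 3. Plxnb1, the receptor of Sema4d, was at 112 ± 7.65 CPM in astrocytes and at 32.3 ± 6.8 CPM in oligodendrocytes, the next class, without overlap. Astrocytes also had 48.4 ± 7.41 CPM of Sema4a and 17 ± 4.5 CPM of Ephb3. Endothelial cells led in Sema3c (592 ± 198 CPM) and Sema7a (159 ± 23.3 CPM), which were 8.5 and 10.0 times the next class, and held 25.5 ± 16.3 CPM of Ephb4, a receptor known from veins. That Ephb4 level rested on 1 and 4 UMIs in WT and 2 and 3 UMIs in KI, and its range overlapped that of fibroblasts. Fibroblasts of the meninges and vessels had the most Sema3a (126 ± 34.5 CPM, 5.49 times the next class), with 43.2 ± 16.7 CPM of Ntn1 and 15 ± 4.05 CPM of Ephb4. Mural cells held Ntn1, Ntn4 and Epha1, but their 27 to 38 nuclei per library left wide ranges (59 to 279.8, 11.8 to 216 and 0 to 24 CPM). In microglia the members that stood out most, Sema4d (99.4 ± 13.9 CPM), Plxnb2 (30.4 ± 6.93 CPM) and Sema4c (10.6 ± 5.73 CPM), were below their highest class. For 19 of the 67 members the lowest library of the top class lay above the highest library of the next one, and for 48 it did not.

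**Figure D1:**
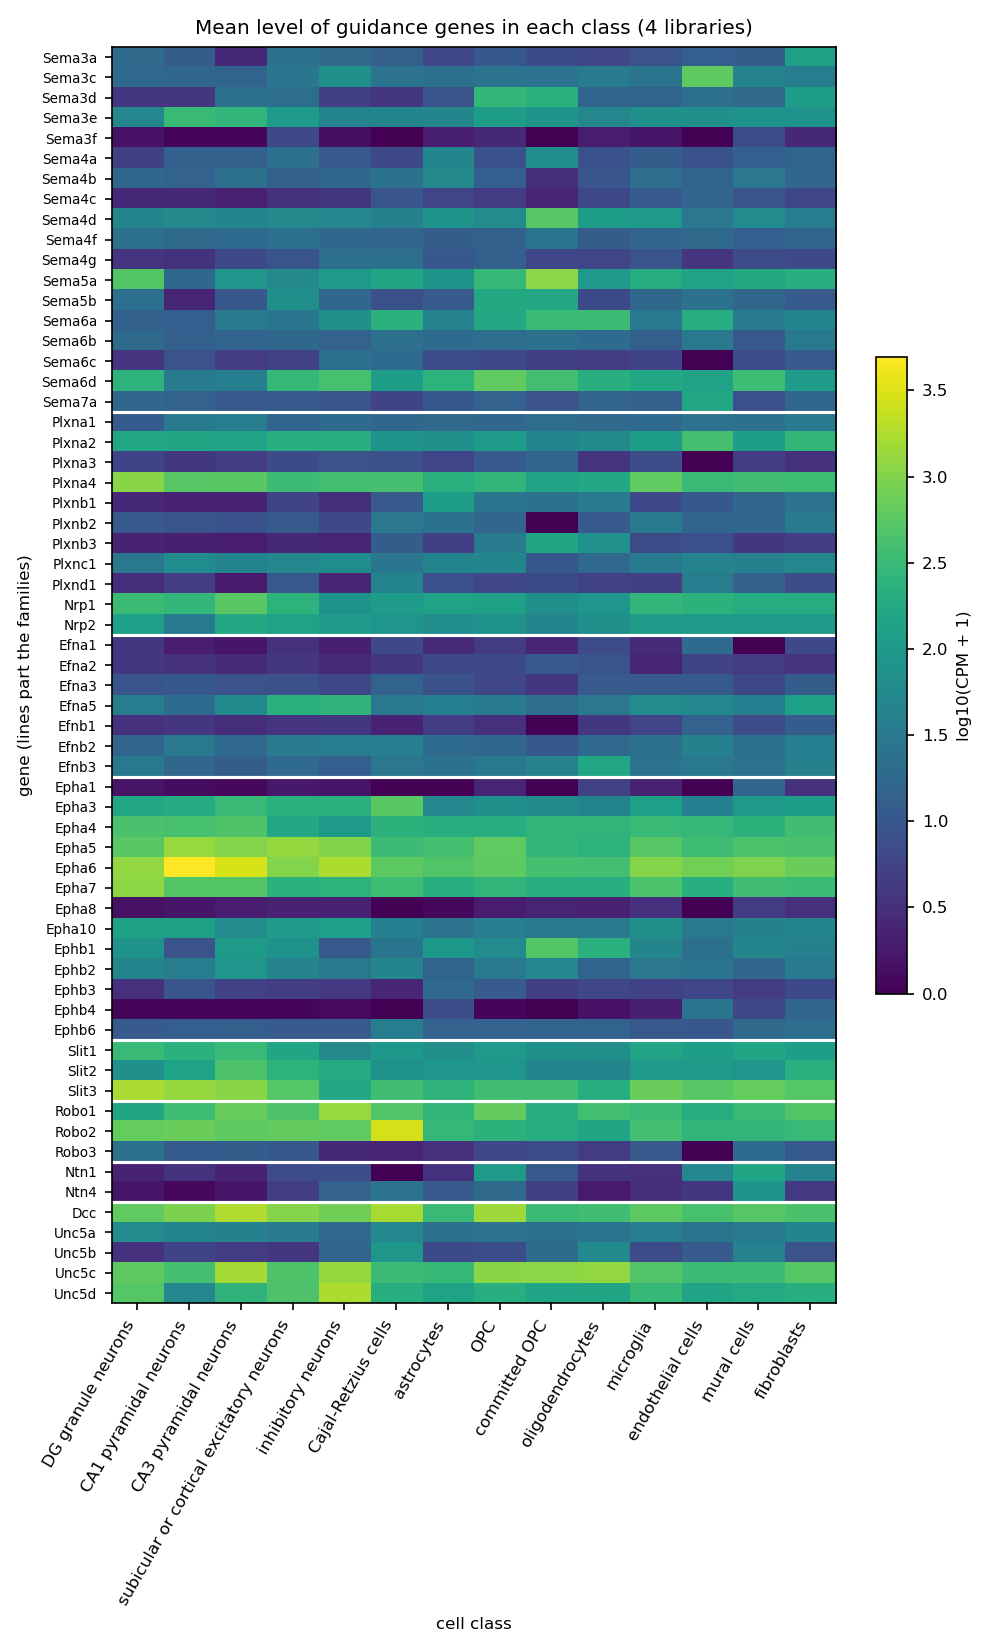
Mean CPM over the 4 libraries of the 62 guidance ligands and receptors (rows, white lines between families) in the 14 classes (columns), coloured on a log10(CPM + 1) scale. Epha6 in CA1 pyramidal neurons (4946 CPM) is the brightest cell, and Sema3c and Sema7a stand out in endothelial cells.

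The comparison of KI with WT asks which genes change with the mutation in each class. It was made on UMIs summed per library with edgeR's quasi-likelihood test, adjusted by Benjamini-Hochberg over all genes tested in a class and called at 0.05. In DG granule neurons, with 4297 and 3293 nuclei from WT against 2467 and 2223 from KI, 15 of 62 tested members passed, 7 higher and 8 lower in KI. Over all genes tested there, 9.85% passed, 4.91% higher and 4.95% lower. The median log2 fold change was -0.09 over the 62 members and 0.00, rounded, over all genes. By role, 3 semaphorins rose and 3 fell of 17 tested, 2 of 3 Slits and 1 of 3 Robo receptors fell, 3 of 10 Eph receptors rose, and of 5 netrin receptors 1 rose and 1 fell. Among 11 plexins and neuropilins only Nrp1 passed, and no ephrin did. Without WT replicate 1 or WT replicate 2 the count was 7 and 7, and without KI replicate 1 or KI replicate 2 it was 34 and 40, where in the same 4 fits 2.1, 1.89, 26.1 and 48% of all genes passed. The calls on Dcc, Unc5d, Sema3a, Sema3e, Sema5b, Epha10 and Robo1 held without each of the 4 libraries, whereas Epha7, Ephb6, Nrp1, Sema4d, Sema4f, Slit1 and Slit2 were not past the threshold without WT replicate 1 and not without WT replicate 2. As a low mark for free RNA, the UMIs per nucleus of a gene were divided by those in whichever of oligodendrocytes, astrocytes, microglia and OPC had the fewest, and the range of this glial ratio over the libraries is given where it comes near 1. Without TMM scaling the median of all genes shifted to -0.13, with 618 genes higher and 1225 lower against 802 and 808, and the members passing were 5 higher and 12 lower.

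**Figure D2:**
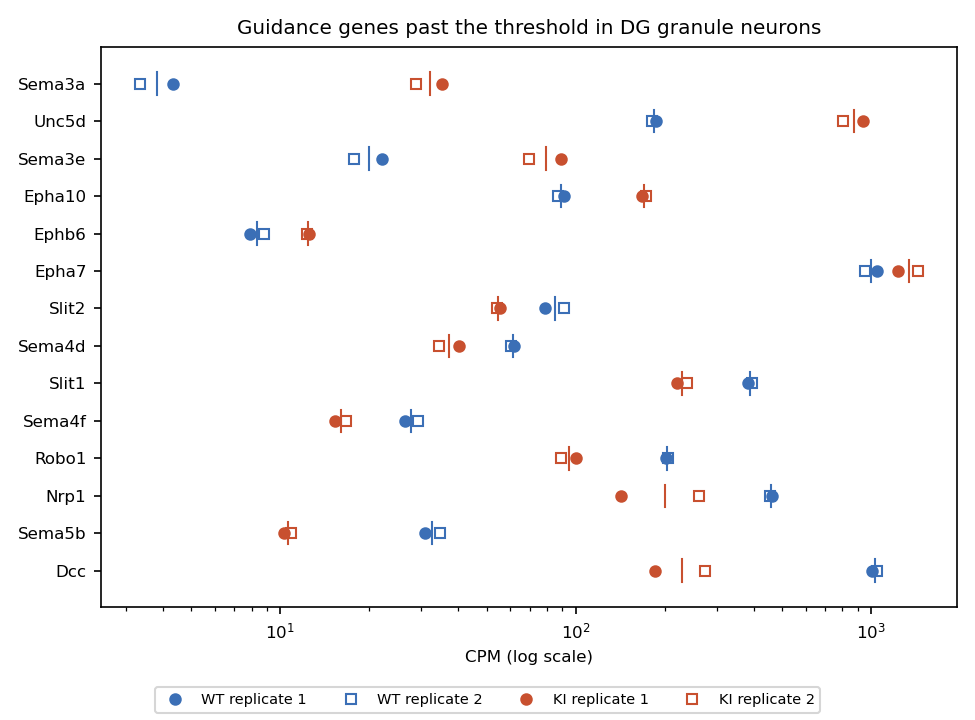
CPM on a log axis of the 14 guidance genes past the threshold with a mean of at least 5 CPM in DG granule neurons, 1 point per library (blue WT, red KI) with a tick at each group mean. Sema3a, at the top, runs from WT levels of 3.35 and 4.33 CPM up to 28.9 and 35.2 CPM, and Dcc, at the bottom, from 1006 and 1049.6 CPM down to 186 and 273 CPM.

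The netrin receptors moved in opposite directions in DG granule neurons. Dcc (chromosome 18, 71253634 to 72351069, minus strand of GRCm38), the attractive netrin receptor, was at 1006 and 1049.6 CPM (WT replicates 1 and 2) against 186 and 273 CPM (KI replicates 1 and 2). Both KI libraries lay far below both WT libraries, a 4.1-fold fall (log2 fold change -2.04 ± 0.16 (SE), edgeR adjusted p = 0.00267). Unc5d (chromosome 8, 28646717 to 29219636, minus strand) was at 187 and 182 CPM (WT) against 942 and 803 CPM (KI), so that the level in KI rose 5.21-fold (log2 fold change 2.38 ± 0.12 (SE), edgeR adjusted p = 0.000951). Unc5c, a further netrin receptor, stood at 483 and 440.2 CPM (WT) against 556 and 912 CPM (KI) (log2 fold change 0.79 ± 0.20, adjusted p = 0.058) and did not pass. Their ligand Ntn1 was near absent in these neurons, at 0.675 and 1.12 CPM (WT) against 2.27 and 0.828 CPM (KI). Per nucleus, Unc5d was 4.61 to 17.8 times the lowest glial class and Dcc 2.16 to 6.66 times, with the smaller ratios of Dcc in KI. The 10 inhibitory markers, a class rich in Unc5d, summed in DG nuclei to 1742 and 1648 CPM (WT) against 1344 and 1271 CPM (KI), with Erbb4 alone higher in both KI libraries.

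Shares of nuclei with a UMI moved the same way. Each nucleus was thinned to 1000 UMIs, which left out 12 to 21 DG granule nuclei per library, and oligodendrocytes served as the class for comparison. Unc5d was seen in 15.1% and 15.9% of thinned DG nuclei in WT and in 54.5% and 49.6% in KI, against 9.24% and 8.68% and then 13.2% and 15.8% of oligodendrocytes. Dcc was seen in 55.3% and 55.7% in WT and in 15.5% and 19.9% in KI, against 31.9% and 30.7% and then 17% and 23.6% of oligodendrocytes. In KI the thinned Dcc share was thus lower in DG nuclei than in oligodendrocytes, but before thinning it was higher, with 24.3% and 31.9% of KI oligodendrocytes, and no order is read from it. Mature oligodendrocytes can make Dcc themselves. In WT replicate 1 the exact 95% interval for Dcc ran from 53.8 to 56.8%, and in KI replicate 1 from 14.1 to 17%; such intervals cover counting error only. Before thinning, 85.8, 87.9, 42.4 and 47.5% of DG nuclei of WT replicates 1 and 2 and KI replicates 1 and 2 had Dcc, and 35.8, 38.2, 88.5 and 79.5% had Unc5d. The median depth was 3725, 4162, 4408 and 3971 UMIs in DG nuclei and 1417, 1488, 1459 and 1358 in oligodendrocytes, of which 157 to 390 per library were left out as shallower.

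**Figure D3:**
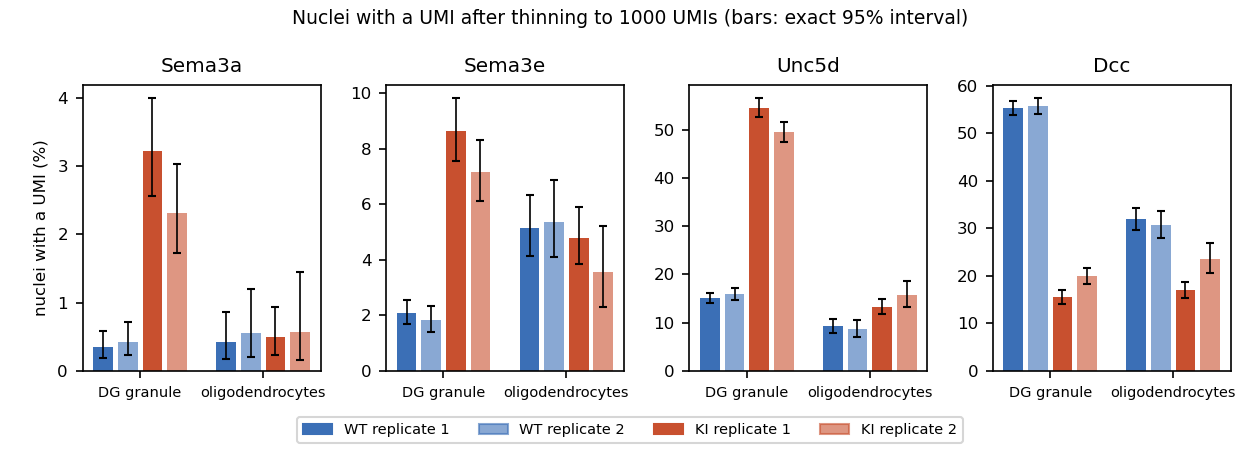
Percent of nuclei with at least 1 UMI of the 4 genes that moved by more than 2 on the log2 scale, after thinning to 1000 UMIs, in DG granule neurons and oligodendrocytes, 1 bar per library (blue WT, red KI) with exact 95% intervals. Unc5d rises from 15.1% and 15.9% to 54.5% and 49.6% in DG nuclei while Dcc falls to 15.5% and 19.9%.

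Among the semaphorins, a pair of neighbouring class 3 genes rose in DG granule neurons of KI mice. Sema3a (chromosome 5, 13125414 to 13602565, plus strand), a secreted repellent that acts through neuropilin 1 and class A plexins, was at 4.33 and 3.35 CPM (WT replicates 1 and 2) against 35.2 and 28.9 CPM (KI replicates 1 and 2) (9.13-fold, log2 fold change 3.19 ± 0.21 (SE), edgeR adjusted p = 0.00213). Sema3e, which starts 423 kb beyond the end of Sema3a (chromosome 5, 14025276 to 14256689, plus strand), was at 22.2 and 17.8 CPM (WT) against 89.5 and 69.5 CPM (KI) (4.39-fold, log2 fold change 2.13 ± 0.19 (SE), edgeR adjusted p = 0.00335). The groups did not overlap for either gene. The other class 3 genes of this chromosome did not pass: Sema3d was at 2.53 and 2.43 CPM (WT) against 2.69 and 3.52 CPM (KI) and Sema3c at 20.5 and 20.7 CPM (WT) against 14.7 and 14.3 CPM (KI) (adjusted p = 0.328 and 0.141). The start regions of both risen genes are shown because they moved together in this class. The 250 bases before the RefSeq starts (GRCm38.p6, plus strand) lie at chr5:13396534-13396783 for Sema3a and chr5:14025026-14025275 for Sema3e, with GGGCGG matches (the GC box, searched on both strands) in capitals.
Sema3a: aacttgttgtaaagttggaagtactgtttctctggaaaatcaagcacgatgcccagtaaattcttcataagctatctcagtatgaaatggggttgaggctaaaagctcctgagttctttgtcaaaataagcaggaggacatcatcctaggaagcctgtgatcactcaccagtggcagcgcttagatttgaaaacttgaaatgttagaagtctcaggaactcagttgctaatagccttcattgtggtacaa
Sema3e: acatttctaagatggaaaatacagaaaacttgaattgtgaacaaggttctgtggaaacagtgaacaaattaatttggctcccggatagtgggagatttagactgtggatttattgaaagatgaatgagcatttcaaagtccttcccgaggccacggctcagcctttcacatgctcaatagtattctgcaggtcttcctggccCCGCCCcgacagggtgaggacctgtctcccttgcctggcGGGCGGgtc
The RefSeq start of Sema3a lies inside the longer gene span that GENCODE gives, so that other starts of this gene were not shown. The Sema3e window held 2 GC boxes and that of Sema3a 0, where 32.9% of 27025 promoter windows of the same length hold at least 1. Neither window held TGACGTCA (the cAMP response element, in 1.62% of windows) or TGANTCA (the AP-1 site, in 6.87%), on either strand.

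Most DG nuclei still had no Sema3a UMI. After thinning, 0.351% and 0.427% of WT and 3.22% and 2.31% of KI granule nuclei had one, beside 0.42% and 0.554% and then 0.496% and 0.57% of oligodendrocytes. Without thinning the DG shares were 1.56, 1.4, 13 and 9.85% (WT replicates 1 and 2, then KI) and those of oligodendrocytes 0.583, 0.726, 0.761 and 0.924%, so that the WT order of these classes turned with thinning. For Sema3e the thinned shares were 2.08% and 1.83% in WT and 8.64% and 7.15% in KI, beside 5.16% and 5.36% and then 4.8% and 3.56% of oligodendrocytes. Unthinned, the Sema3e shares in DG nuclei were 7.98, 7.38, 31.1 and 23.8%, beside 7.19, 8.15, 8.08 and 6.58% of oligodendrocytes. The glial ratio of Sema3a was 2.13 to 22.3 and that of Sema3e 0.941 to 4.59. Sema3e is otherwise a gene of CA1 and CA3 pyramidal neurons here. Summed over the 7 CA1 markers, the DG class held 187 and 162 CPM (WT) against 372 and 334 CPM (KI), where Galntl6 alone was higher in both KI libraries and 5 of the 7, among them Fibcd1 and Spink8, were lower in both. Over the 7 CA3 markers the sums were 668 and 678 CPM (WT) against 792 and 768 CPM (KI), with Iyd, Grik4 and Nectin3 higher in both KI libraries and Coch, Cpne4 and Cdh24 lower in both. The 8 DG markers summed to 2644 and 2522 CPM (WT) against 1923 and 2344 CPM (KI), with Prox1, Dsp, Glis3 and Tdo2 lower in both KI libraries and C1ql2 higher in both. The 7 markers of CA2 pyramidal neurons summed to 265 and 279.8 CPM (WT) against 85.3 and 139 CPM (KI), with 5 lower in both KI libraries and Map3k15 higher in both. The 8 endothelial markers were at 34.8 and 40.0 CPM (WT) against 47.2 and 53.4 CPM (KI), with 3 higher in both, and the 8 Cajal-Retzius markers at 21.8 and 21.6 CPM (WT) against 31.5 and 36.8 CPM (KI), with 3 higher in both and Trp73 lower. Of the 19 marker lists, 7 summed higher and 5 lower in both KI libraries than in both WT libraries in this class, among the latter the 10 inhibitory markers at 1742 and 1648 CPM (WT) against 1344 and 1271 CPM (KI). None of the lists had a marker at 0, and the part of these shifts in the guidance genes was not tested.

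Other semaphorins fell in the same class. Sema5b was at 30.9 and 34.7 CPM (WT) against 10.3 and 10.9 CPM (KI) (log2 fold change -1.49 ± 0.14, adjusted p = 0.00379), a 2.81-fold fall without overlap. Sema4f, at 26.4 and 29.3 CPM (WT) against 15.4 and 16.8 CPM (KI), and Sema4d, at 61.8 and 60.6 CPM (WT) against 40.3 and 34.5 CPM (KI), fell by less (-0.66 and -0.57 on the log2 scale, adjusted p = 0.0341 and 0.048). Sema4d per nucleus was only 0.777 to 1.91 times the lowest glial class, while Sema5b was 4.54 to 24.8 times. Sema4a passed as well (log2 fold change 1.52 ± 0.25, adjusted p = 0.0174), at 2.02 and 2.37 CPM (WT) against 6.05 and 5.38 CPM (KI), a level under the 5 CPM minimum for naming and 0.921 to 2.67 times the lowest glial class. Of the receptors, Nrp1, the neuropilin that binds Sema3a, fell 2.09-fold, with 463 and 453 CPM (WT) against 142 and 261 CPM (KI) (log2 fold change -1.06 ± 0.24 (SE), edgeR adjusted p = 0.0429); KI replicate 2 sat between KI replicate 1 and WT. Nrp2 was at 150.5 and 145 CPM (WT) against 80.9 and 111 CPM (KI) (adjusted p = 0.0752) and did not pass. Nor did the plexins that pair with these ligands: Plxna4 was at 1249 and 1221 CPM (WT) against 813 and 1006 CPM (KI), Plxna2 at 154 and 164 CPM (WT) against 175 and 164 CPM (KI), and Plxnd1, the Sema3e receptor, at 1.57 and 1.78 CPM (WT) against 2.27 and 2.38 CPM (KI).

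Slit ligands and Robo1 were lower in KI granule neurons. Slit1 was at 383 and 397 CPM (WT) against 220.3 and 237 CPM (KI) (log2 fold change -0.63 ± 0.09, adjusted p = 0.00941) and Slit2 at 79.1 and 91.5 CPM (WT) against 55.5 and 54 CPM (KI) (log2 fold change -0.50 ± 0.12, adjusted p = 0.0483), both without overlap. Slit3, the most abundant Slit, was at 1902 and 1852 CPM (WT) against 1430.5 and 1550.0 CPM (KI) and did not pass (adjusted p = 0.132). Robo1, a Slit receptor, fell 1.95-fold, with 202 and 205 CPM (WT) against 100.4 and 89.3 CPM (KI) (log2 fold change -0.96 ± 0.11 (SE), edgeR adjusted p = 0.00675). Its UMIs per nucleus were 0.762 to 1.55 times the lowest glial class, so that the level in DG nuclei stayed near that of the glial class with the least Robo1 in both genotypes. Robo2, the more abundant receptor, was at 585 and 601 CPM (WT) against 850.3 and 629 CPM (KI) (adjusted p = 0.121).

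Eph receptors that changed in DG granule neurons were all higher in KI. Epha10, a receptor without kinase activity, was at 91.3 and 87 CPM (WT) against 168 and 173 CPM (KI) (2.1-fold, log2 fold change 1.07 ± 0.09 (SE), edgeR adjusted p = 0.00321), with the libraries of each genotype close together. Epha7, which this class holds at the highest level, was at 1050.1 and 950.2 CPM (WT) against 1234 and 1442 CPM (KI) (log2 fold change 0.55 ± 0.09, adjusted p = 0.0196), and Ephb6, likewise without kinase activity, at 7.93 and 8.81 CPM (WT) against 12.5 and 12.3 CPM (KI) (log2 fold change 0.71 ± 0.17, adjusted p = 0.0485). The Ephb6 call was lost in 5 of 10 alternatives with all 4 libraries (highest adjusted p = 0.133) and that on Epha7 in 1 (adjusted p = 0.0537). Per nucleus, Ephb6 was 1.45 to 3.41 times the lowest glial class. Epha6 was at 1430.3 and 1356 CPM (WT) against 1034 and 1087 CPM (KI) and did not pass (adjusted p = 0.0836). The ephrin ligand Efnb2 was lower in both KI libraries, at 17.2 and 21.4 CPM (WT) against 5.96 and 13.7 CPM (KI), but KI replicates 1 and 2 lay far apart (adjusted p = 0.15).

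In CA1 pyramidal neurons, with 2457 and 1765 nuclei from WT against 1634 and 1818 from KI, 10 of 62 members passed, 4 higher and 6 lower. Over all genes tested 6.76% passed (4.16% higher, 2.6% lower), and the median log2 fold change was -0.10 over members and 0.00, rounded, over all genes. Dcc fell here too, at 1256 and 1294 CPM (WT) against 554 and 616 CPM (KI) (2.05-fold, log2 fold change -1.04 ± 0.07 (SE), edgeR adjusted p = 0.0031), and it was the sole CA1 member whose call held without each of the 4 libraries. Unc5c, the repulsive netrin receptor, was at 497 and 498 CPM (WT) against 259 and 363 CPM (KI) (log2 fold change -0.60 ± 0.13, adjusted p = 0.0422), and with clustering at a resolution of 1.0 its log2 fold change was -0.24 (adjusted p = 0.265). Slit3, which CA1 holds at high level, fell by less, at 1482 and 1489 CPM (WT) against 1077 and 1074 CPM (KI) (log2 fold change -0.37 ± 0.08, adjusted p = 0.0386), with near identical libraries within each genotype. Slit3 lies 10.5 Mb from Cyfip2 on chromosome 11, and the part of the linked region in this difference was not tested. Epha6, the most abundant member, was at 4627 and 4503 CPM (WT) against 5121 and 5532 CPM (KI) (log2 fold change 0.31 ± 0.06, adjusted p = 0.0398). Efnb2, a transmembrane ephrin, was at 40.7 and 38.5 CPM (WT) against 12.9 and 23.6 CPM (KI) (log2 fold change -1.04 ± 0.23, adjusted p = 0.047), and its receptor Ephb3 at 10.2 and 11.8 CPM (WT) against 5.68 and 5.85 CPM (KI) (log2 fold change -0.84 ± 0.19, adjusted p = 0.0492). Of 10 alternatives with all 4 libraries, 6 lost the call on Efnb2, 4 that on Ephb3, 4 that on Epha6 and 3 that on Unc5c, with highest adjusted p = 0.0858, 0.137, 0.14 and 0.265.

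The CA1 semaphorins that passed were all at low level. Sema4a rose 2.25-fold, at 7.36 and 8.87 CPM (WT) against 17.4 and 16.7 CPM (KI) (log2 fold change 1.17 ± 0.17, adjusted p = 0.0179), at 4.27 to 12.5 times the lowest glial class per nucleus. Sema6a, which oligodendrocytes hold at the highest level, was at 7.65 and 6.57 CPM (WT) against 18.8 and 14.6 CPM (KI) (log2 fold change 1.33 ± 0.22, adjusted p = 0.0221). Sema6d was at 41.3 and 43.8 CPM (WT) against 16.8 and 23.9 CPM (KI) (log2 fold change -0.98 ± 0.16, adjusted p = 0.0221), its lowest level of the 14 classes. UMIs per nucleus of Sema6a were 0.983 to 1.57 times the lowest glial class, that is, not above it in every library. Those of Sema6d were 0.473 to 0.77 times that class, below it in every library. The 7 CA1 markers summed in this class to 5794 and 5600.4 CPM (WT) against 4343 and 4742 CPM (KI), each of the 7 being lower in both KI libraries. The summed 8 oligodendrocyte markers in CA1 nuclei were 319 and 206 CPM (WT) against 163 and 279 CPM (KI), those of 8 endothelial markers 19.98 and 20.6 CPM (WT) against 40.9 and 54.2 CPM (KI), with 5 higher in both KI libraries, and those of 8 astrocyte markers 135 and 148 CPM (WT) against 90.4 and 94.1 CPM (KI), with 6 lower in both. Of the 19 marker lists, 7 summed higher and 4 lower in both KI libraries than in both WT libraries in this class. No marker of any list was at 0, and their part in the differences was not tested. Ntn1 passed at under 5 CPM (1.44 and 1.45 CPM (WT) against 3.81 and 3.22 CPM (KI), log2 fold change 1.37 ± 0.31, adjusted p = 0.0465). Without WT replicate 1 or WT replicate 2, 1 member, Dcc, passed in CA1, and without KI replicate 1 or KI replicate 2, 19 and 33 did; of all genes 0.883, 1.22, 21.6 and 40.3% passed in these fits, taken in the order WT replicates 1 and 2, KI replicates 1 and 2. Gating nuclei by their markers in place of clusters left 6 (all genes 5.02%). Without TMM scaling 2 members passed higher and 5 lower, and over all genes 501 and 546 in place of 671 and 419.

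**Figure D4:**
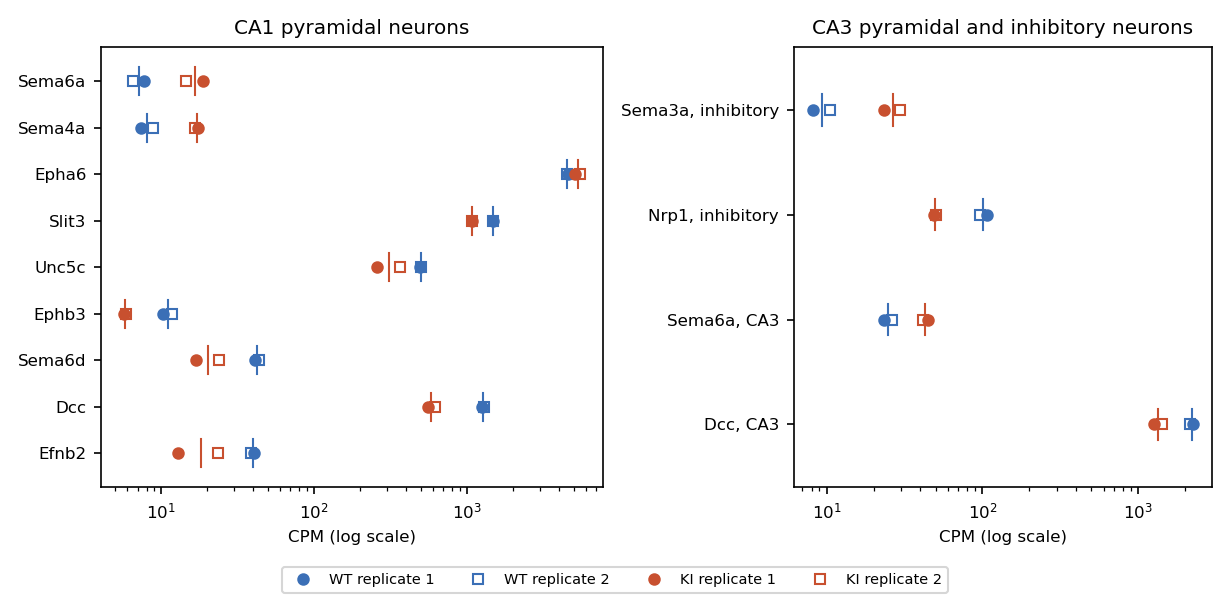
CPM on log axes of the guidance genes past the threshold in CA1 pyramidal neurons (left) and in CA3 pyramidal and inhibitory neurons (right), 1 point per library (blue WT, red KI) with a tick at each group mean. In every row the KI libraries lie on 1 side of the WT libraries, and Dcc is lower in KI in both CA1 and CA3.

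In CA3 pyramidal neurons, with 1344 and 884 nuclei from WT against 867 and 741 from KI, 2 of 59 members passed, where 2.2% of all genes did. Dcc, whose mean level was highest in this class, fell, with 2243 and 2156 CPM (WT) against 1269.8 and 1413 CPM (KI) (1.55-fold, log2 fold change -0.63 ± 0.08 (SE), edgeR adjusted p = 0.0182), and this call held without each of the 4 libraries. Sema6a rose, with 23.2 and 26.4 CPM (WT) against 44.5 and 41.4 CPM (KI) (log2 fold change 0.88 ± 0.15, adjusted p = 0.0337), at 3.65 to 6.43 times the lowest glial class per nucleus. The Sema6a call was lost without WT replicate 1 and without WT replicate 2 (adjusted p = 0.298 and 0.128) and with nuclei gated by markers (adjusted p = 0.0834). Sema5b was at 16.7 and 10.7 CPM (WT) against 3.01 and 5.58 CPM (KI), without overlap but short of the threshold (log2 fold change -1.64 ± 0.34, adjusted p = 0.0527). The 7 CA3 markers summed in this class to 3023 and 3051 CPM (WT) against 2856 and 2819 CPM (KI), with 4 lower in both KI libraries, and the 8 endothelial markers to 27.7 and 30.4 CPM (WT) against 53.5 and 67.6 CPM (KI), with 3 higher in both. The 8 fibroblast markers were at 22.2 and 22.4 CPM (WT) against 35.8 and 36.5 CPM (KI), with 4 higher in both and Col1a2 at 0, and the 5 neuroblast markers at 51.5 and 56.9 CPM (WT) against 78.2 and 70.4 CPM (KI), with 4 higher in both and Eomes at 0. Of the 19 marker lists, 5 summed higher and 7 lower in both KI libraries than in both WT libraries in this class; their part in these results was not tested. Without TMM scaling 1 member was higher and 3 lower, and over all genes 121 and 125 in place of 220 and 118. The CA3 count was 1, 2, 11 and 26 without WT replicates 1 and 2 and KI replicates 1 and 2, beside 0.587, 0.715, 9.19 and 31.8% of all genes.

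Inhibitory neurons, with 937 and 909 nuclei from WT against 846 and 1177 from KI, had 2 of 60 members past the threshold, beside 1.27% of all genes. Sema3a rose there as well, at 8.14 and 10.6 CPM (WT) against 23.5 and 29.7 CPM (KI) (3.06-fold, log2 fold change 1.61 ± 0.21 (SE), edgeR adjusted p = 0.019), at 9.09 to 24.2 times the lowest glial class per nucleus. Nrp1, its co-receptor, fell, with 106 and 96 CPM (WT) against 49.2 and 50.5 CPM (KI) (1.89-fold, log2 fold change -0.92 ± 0.12 (SE), edgeR adjusted p = 0.0214). Neither call held without WT replicate 1 (adjusted p = 0.186 and 0.244) or without WT replicate 2 (adjusted p = 0.0643 and 0.107). The 10 inhibitory markers of this class summed to 14569 and 13505 CPM (WT) against 11179 and 11609 CPM (KI), with 7 lower in both KI libraries, and 8 endothelial markers to 28.9 and 34.2 CPM (WT) against 48.4 and 65.5 CPM (KI), with 4 higher in both. Of the 19 marker lists, 4 summed higher and 6 lower in both KI libraries than in both WT libraries in this class, and Eomes of the neuroblast list was at 0. Their part in the 2 calls was not tested. Dcc in inhibitory neurons was at 808 and 801 CPM (WT) against 613 and 915 CPM (KI) and Unc5d, at its highest level of all classes, at 1907 and 1672 CPM (WT) against 1776 and 1534 CPM (KI); neither passed.

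Outside these neurons, 1 member passed in astrocytes: Unc5d, of 44 tested (73.7 and 92.3 CPM (WT) against 197 and 175 CPM (KI), log2 fold change 1.21 ± 0.21, adjusted p = 0.0471), where 0.307% of all genes passed. Its level per nucleus was 0.99 to 2.33 times the lowest of the other glial classes, and in oligodendrocytes Unc5d was at 104 and 105 CPM (WT) against 157 and 214 CPM (KI). The 10 inhibitory markers, of a class rich in Unc5d, summed in astrocytes to 1055 and 983 CPM (WT) against 1387 and 1327 CPM (KI), and the 7 CA3 markers to 282 and 367 CPM (WT) against 425 and 499.8 CPM (KI). Of the 19 marker lists, 4 summed higher and 3 lower in both KI libraries than in both WT libraries in this class; their part was not tested. Without WT replicate 1 the astrocyte call was lost (adjusted p = 0.296), as it was in 3 of 10 alternatives with all 4 libraries (no TMM scaling, thinned sums and no doublet removal, highest adjusted p = 0.129). No member passed in edgeR in OPC (background 0.0464%), oligodendrocytes (0.826%), fibroblasts (0.012%), microglia, committed OPC, endothelial cells, mural cells, Cajal-Retzius cells and subicular or cortical excitatory neurons (each 0%). At an unadjusted p below 0.05, read beside the share of all genes at that p in parentheses, 5 of 50 members passed in OPC (9.84%), 10 of 56 in oligodendrocytes (15.2%), 2 of 41 in fibroblasts (5.19%), 10 of 40 in microglia (6.38%) and 10 of 63 in subicular or cortical excitatory neurons (10.3%). In the smallest classes they were 1 of 20 in committed OPC (4.2%), 0 of 21 in endothelial cells (7.17%), 0 of 14 in mural cells (4.83%) and 2 of 23 in Cajal-Retzius cells (5.63%). DESeq2 called 1 member in oligodendrocytes and 0 in the other 8 of these classes. The 20 to 80 nuclei per library in endothelial, mural, committed OPC and Cajal-Retzius classes limit what could be seen there. Over all nuclei, 2 of 67 members passed beside 0.889% of all genes: Dcc, at 1175 and 1204 CPM (WT) against 589.9 and 679 CPM (KI) (log2 fold change -0.86 ± 0.08, adjusted p = 0.0368), and Sema5b, at 22.9 and 21.5 CPM (WT) against 11.9 and 12.1 CPM (KI) (log2 fold change -0.84 ± 0.12, adjusted p = 0.0478). In such sums a change in the mix of classes and a change per nucleus cannot be told apart; without KI replicate 2 the count was 30, and it was 1, 2 and 7 without WT replicate 1, WT replicate 2 and KI replicate 1. Without KI replicate 2, 32.4% of all genes passed, and 0.513, 1.01 and 4.92% in the other 3 fits.

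Whether the genotype effect differed between classes was tested with a class-by-genotype term, the library as a block. Between DG granule and CA1 pyramidal neurons it differed for 23 of 62 members (all genes 13.9%), between DG and CA3 for 18 of 62 (all genes 10.9%), between CA1 and CA3 for 4 of 62 (all genes 3.02%) and between DG and inhibitory neurons for 17 of 63 (all genes 9.11%). Unc5d rose in DG by 2.14 ± 0.11 (log2, ± SE) more than in CA1, 2.15 ± 0.11 more than in CA3 and 2.38 ± 0.10 more than in inhibitory neurons (adjusted p = 1.5e-07, 2.1e-07 and 2.2e-10). Sema3a differed likewise, by 3.03 ± 0.19 from CA1 and, although it rose in both classes, by 1.56 ± 0.28 from inhibitory neurons (adjusted p = 7.6e-07 and 0.00142). For Sema3e the difference from CA1, where it stood at 313 and 303 CPM (WT) against 324 and 309 CPM (KI), was 2.00 ± 0.12 (adjusted p = 6.0e-07). For Dcc, which fell in all 3 classes, the difference was -1.01 ± 0.12 from CA1 and -1.41 ± 0.12 from CA3 (adjusted p = 0.000121 and 6.8e-06), the deeper fall being in DG. Slit1 fell in DG and was at 207 and 199 CPM (WT) against 251 and 248 CPM (KI) in CA1 (difference -1.01 ± 0.09, adjusted p = 1.6e-05). Unc5c was the reverse case, with 0.79 in DG, short of the threshold, and -0.60 in CA1 (difference 1.38 ± 0.10, adjusted p = 2.6e-06).

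**Figure D5:**
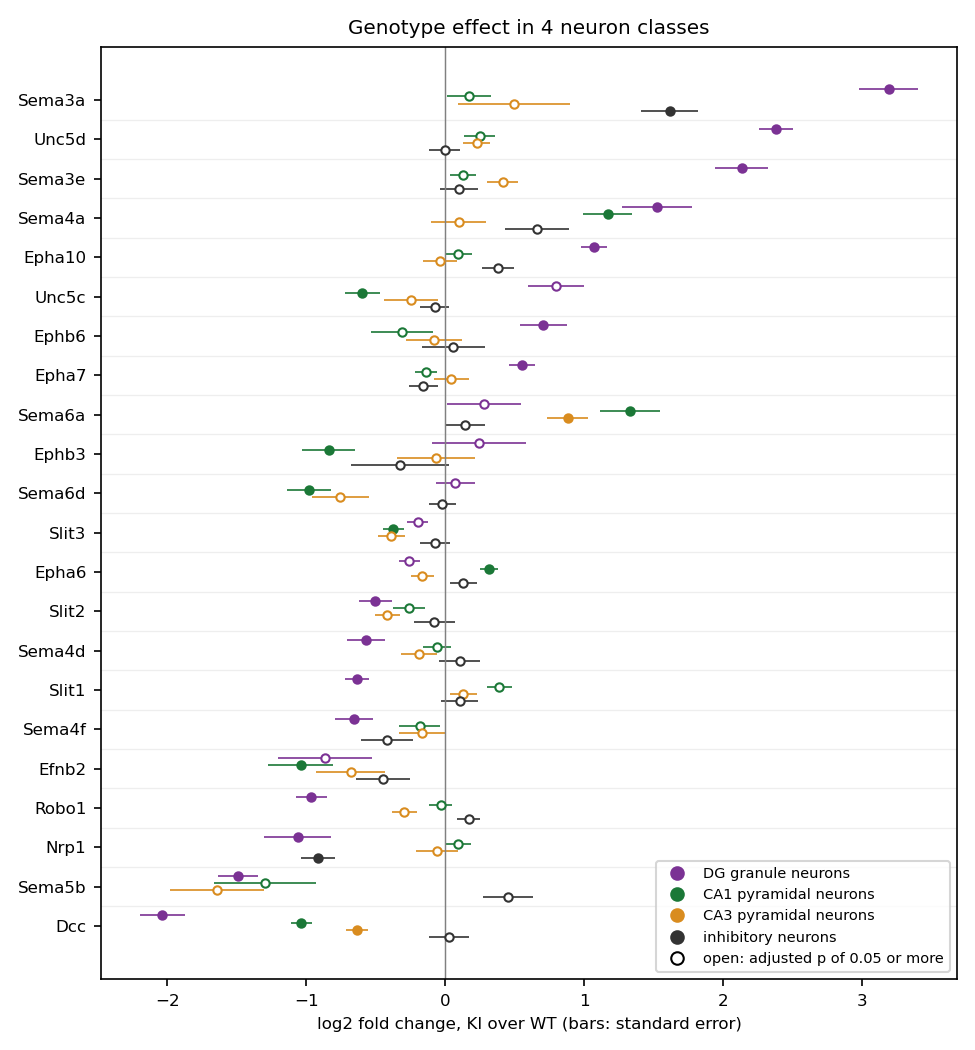
Log2 fold change of KI over WT with its standard error for each guidance gene past the threshold in at least 1 of 4 neuron classes and named here, coloured by class; filled points passed the threshold. Sema3a, Unc5d and Sema3e in DG granule neurons lie furthest to the right (3.19, 2.38 and 2.13), and Dcc lies left of 0 in DG, CA1 and CA3 (-2.04, -1.04 and -0.63).

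Further genes of the pathway were taken from 2 lists of known pathway genes, read beside the share of all genes given above. Of 32 other guidance cues and receptors, 30 were tested in DG granule neurons, where 2 rose and 2 fell (median log2 fold change -0.14). Cntn4, a contactin of growing axons, rose from 188 and 196 CPM (WT) to 746 and 541 CPM (KI; log2 fold change 1.89 ± 0.18), and Ntng1, a netrin G, from 558 and 526 CPM (WT) to 646 and 736 CPM (KI; log2 fold change 0.48 ± 0.09). Dscaml1 and Dscam, adhesion receptors of which DSCAM also binds netrin 1, fell from 549 and 578 CPM (WT) to 162 and 234 CPM (KI; log2 fold change -1.38 ± 0.15) and from 885 and 898 CPM (WT) to 444 and 449.8 CPM (KI; log2 fold change -0.86 ± 0.08). In CA1 the same list had 1 rise and 4 falls among 30 tested (median -0.20): Dscam rose from 340.2 and 340.1 CPM (WT) to 487 and 451 CPM (KI; log2 fold change 0.56 ± 0.10), whereas Ntng1, Lrrc4c, a netrin G ligand, Flrt2, a ligand of UNC5 receptors, and Rtn4rl2, a receptor of the Nogo receptor family, fell. Their log2 fold changes were -0.56, -0.47, -0.61 and -0.88. In CA3 1 of 29 passed, Chl1, an L1-type adhesion molecule, which fell from 157 and 172 CPM (WT) to 109 and 98.1 CPM (KI; log2 fold change -0.59 ± 0.12). Of 38 guidance signal transducers, 1 of 36 fell and 0 rose in DG (median -0.11): Farp1, which works downstream of class A plexins, from 24.1 and 29.3 CPM (WT) to 8.65 and 10.2 CPM (KI; log2 fold change -1.36 ± 0.17). In CA1 3 rose and 4 fell of 36 (median 0.01), among them Mical2, an actin-oxidising enzyme, from 502 and 518 CPM (WT) to 292 and 307 CPM (KI; log2 fold change -0.68 ± 0.08), and Srgap2, a Slit-Robo GTPase activator, which rose from 225 and 226 CPM (WT) to 289 and 314 CPM (KI; log2 fold change 0.51 ± 0.08). The other 5 were Vav2 and Ablim3, which rose, and Ngef, Crmp1 and Farp1, which fell. In CA3 Srgap2 rose and Mical2 fell, from 419 and 421 CPM (WT) to 253 and 289.7 CPM (KI; log2 fold change -0.55 ± 0.09), of 35 tested. In astrocytes and inhibitory neurons 0 genes of either list passed in edgeR.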

How the data were processed

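Single-nucleus RNA was measured in 4 hippocampal libraries, 2 per genotype. The authors deposited whole-number UMI counts per gene and barcode, made with Cell Ranger 7.0.1 per the file headers, on mm10 per the submitters' processing notes; whether free RNA was subtracted is not given in the sources used here. Nuclei were kept from 500 genes upwards if mitochondrial counts made up no more than 5%, and 3262 doublets (5.90%) were removed by Scrublet, which left 52033 of 55640. Nuclei were clustered with scanpy 1.11.5 and leidenalg 0.10.2 (2000 variable genes without the guidance genes, 30 components, resolution 0.5) and named from marker lists; naming single nuclei by markers instead left 22088 nuclei unnamed and gave the same class for 22038 of the 26244 named both ways (84.0%). Counts were summed per library and class (at least 20 nuclei in every library) and tested with edgeR 4.0.16 in R 4.3.3 (TMM, filterByExpr, quasi-likelihood), threshold 0.05; DESeq2 1.42.0, other scalings, filters, gates and left-out libraries were alternatives. The study's own test takes nuclei as replicates and was not used.

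The members and lists were chosen with earlier results of these data known. Genes were named for a change where they passed in a class at a mean of at least 5 CPM, and for a level as up to 3 members per class with the highest ratio to the median class, at 10 CPM or more; partners were added. Tested on simulated data for DG granule neurons (16339 genes), the fit recovered 62.2% of genes changed by 1 and 89.1% of those changed by 2 on the log2 scale, and 12.5% of its 176 calls were false, above the 5% aimed at. For the DG minus CA1 difference (10621 genes) it recovered 5.43% and 70.4%, with 2.41% of 83 calls false. The fit of this difference to the data tested 17130 genes and called 13.9%. The simulated setting thus differs from the data, and its rates need not hold for the real calls. Gene positions are GENCODE M21 and promoter windows RefSeq, both on GRCm38; 55 members had a promoter window. Whether reads were counted by strand was not established here, so Plxna4 and its antisense rows may share reads.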

Additional observations from a re-analysis of the deposited data

Results flagged for a closer look

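In 46 cases the log2 fold change of KI over WT of a named guidance gene differed between 2 classes by edgeR's class-by-genotype term with Benjamini-Hochberg adjustment over all genes. Each value is the log2 fold change in the first class minus that in the second. The 4 contrasts share libraries, and DG granule neurons enter 3 of them, so that a gene listed again is not a separate result.

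Between DG granule and CA1 pyramidal neurons 17 genes differed, namely Sema6d 1.06, Unc5c 1.38, Epha7 0.70, Epha10 0.98, Sema3a 3.03, Sema3e 2.00, Ephb6 1.04, Sema4f -0.46, Unc5d 2.14, Nrp1 -1.20, Sema4d -0.50, Ephb3 1.09, Epha6 -0.56, Robo1 -0.92, Sema6a -1.05, Dcc -1.01 and Slit1 -1.01. Between DG granule and CA3 pyramidal neurons the 13 differences were Sema6d 0.83, Sema4a 1.44, Unc5c 1.05, Epha7 0.52, Epha10 1.11, Sema3a 2.70, Sema3e 1.72, Ephb6 0.80, Unc5d 2.15, Nrp1 -1.03, Robo1 -0.66, Dcc -1.41 and Slit1 -0.76. For CA1 minus CA3 pyramidal neurons they were Sema4a 1.09, Epha6 0.48 and Dcc -0.40. Against inhibitory neurons, DG granule neurons differed in Unc5c 0.84, Epha7 0.71, Epha10 0.69, Sema3a 1.56, Sema3e 2.02, Slit2 -0.44, Unc5d 2.38, Sema4d -0.68, Sema5b -1.94, Epha6 -0.39, Robo1 -1.14, Dcc -2.06 and Slit1 -0.74.

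Sema3a, Sema3e, Unc5d, Epha7, Epha10 and Unc5c had positive differences, and Dcc, Robo1 and Slit1 negative ones, in each of the 3 contrasts of DG granule neurons. Sema6d and Sema6a in CA1 and Robo1, Sema4a, Sema4d and Sema3e in DG had UMIs per nucleus near or below those of the glial class with the fewest in at least 1 library, and the part of free RNA in their differences was not tested.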

How the results depend on the processing

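Of 28 fold changes named for a class, 17 kept their direction and their call in all 10 alternatives that used the 4 libraries, and 9 also without each library: Dcc in DG, CA1 and CA3, and Epha10, Robo1, Sema3a, Sema3e, Sema5b and Unc5d in DG. None of these 28 fold changes reversed in the alternatives. Without WT replicate 1, 19 fold changes missed the threshold, and without WT replicate 2, 18; none did without either KI replicate. With all 4 libraries, alternatives that lost a call numbered 6 for Efnb2, 4 each for Epha6 and Ephb3, 3 for Unc5c and 1 for Sema6a in CA1, 5 for Ephb6 and 1 each for Epha7, Sema4d and Slit2 in DG, 1 for Sema6a in CA3 and 3 for Unc5d in astrocytes. The cause was not tested. The counts of members below stand beside the share of all genes that passed in the same fit, in parentheses. Leaving out 1 library, the members passing ranged from 7 to 40 in DG (1.89 to 48%), 1 to 33 in CA1 (0.883 to 40.3%), 1 to 26 in CA3 (0.587 to 31.8%), 0 to 8 in inhibitory neurons (0.0563 to 20.05%), 0 to 2 in astrocytes (0.315 to 4.13%), 0 to 11 in OPC (0.035 to 7.3%), 0 to 2 in committed OPC (0 to 2.13%), 0 to 8 in microglia (0 to 8.34%), 0 to 16 in oligodendrocytes (0.811 to 22.2%), 0 to 6 in subicular or cortical excitatory neurons (0 to 1.69%), 0 to 1 in Cajal-Retzius cells (0 to 0.385%) and 1 to 30 in all nuclei (0.513 to 32.4%). The differences ranged from 0 to 12 for CA1 minus CA3 (0.941 to 5.4%) and from 11 to 23 for DG minus inhibitory neurons (4.56 to 13.9%); those of DG minus CA1 and DG minus CA3 stayed within 1.5 times their main counts. In each such fit the lone library of a genotype is assumed to vary like the other genotype's pair.

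Without the low-count filter 28 members passed in DG (13%), 6 in CA1 (2.35%), 13 in CA3 (7.48%), 2 in OPC (1.11%), 8 in oligodendrocytes (3.93%), 1 in microglia (0.304%), 4 in subicular or cortical excitatory neurons (2.1%), 1 in Cajal-Retzius cells (0.0358%) and 8 in all nuclei (2.5%). DESeq2 gave 5 in CA3 (3.1%), 1 in oligodendrocytes (1.56%) and 11 in all nuclei (9.62%). Without TMM factors 4 passed in CA3 (1.6%), 0 in astrocytes (0.121%) and 8 in the difference CA1 minus CA3 (3.5%). Marker gating gave 6 in CA1 (5.02%) and 1 in CA3 (2.28%), resolution 1.0 gave 5 in CA3 (2.85%), sums thinned to equal depth 0 in astrocytes (0.262%), and no doublet removal 0 in astrocytes (0.0259%) and 1 in all nuclei (0.771%). Same-numbered libraries deviated together with correlations of -0.04 in DG, -0.02 in CA1 and -0.04 in CA3, and with 2 pairs the numbers do not pair the samples; with the replicate block 26 members passed in DG (17.9%), 4 in CA3 (3.48%) and 12 in all nuclei (9%). A crossed replicate block, added after seeing the data, gave 1 in Cajal-Retzius cells (0.611%) and 2 in OPC (3.28%). For 6 levels in endothelial and mural cells the minimum of 1000 genes left under 20 nuclei and no value. Of the other named levels recomputed under alternatives, 104 values were classed as the same and 16 as moved.

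Taken over genes, log2 differences between the libraries of a genotype had an SD of 0.274 (WT) and 0.541 (KI) in DG and 0.297 (WT) and 0.487 (KI) in CA1, whereas WT was the wider in fibroblasts, with 0.64 (WT) and 0.564 (KI), and in subicular or cortical excitatory neurons, with 0.626 (WT) and 0.494 (KI). Endothelial, mural, committed OPC and Cajal-Retzius classes hold at most 80 nuclei per library, which limits the precision there.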
